A study of Mus musculus with 36 samples.

Results

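The TGF-beta system was examined through 10 genes in the mouse tibia: the ligands Tgfb1, Tgfb2 and Tgfb3, the latent TGF-beta binding proteins Ltbp1, Ltbp2, Ltbp3 and Ltbp4, the receptors Tgfbr1 and Tgfbr2, and Tgfbi, which encodes a secreted matrix protein. The genes were chosen by symbol, and all 10 were found among the 56246 genes of the table. All 10 also passed the filter on low values that left 16123 genes for testing. The ligand with the lowest level in wild-type bone, Tgfb2, had the largest difference of the 10 between genotypes, with a mean 5.24 times that of wild-type in saline-treated and 7.0 times in ABE-treated LMNA G/G mice.

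TGF-beta is secreted in a latent form, in which the growth factor is held by its own propeptide. The propeptide is tethered to the matrix by latent TGF-beta binding proteins (LTBPs), and bone matrix is a major store of the latent factor. Integrins, proteases and resorbing osteoclasts release the active ligand, which binds the type II receptor TGFBR2, recruits the type I receptor TGFBR1 and leads to phosphorylation of SMAD2 and SMAD3. In bone, TGF-beta is known for coupling resorption to formation and for acting on osteocytes and their surrounding matrix. Ltbp2 differs from its relatives in that it does not bind the latent complex, and Tgfbi was first identified as a gene induced by TGF-beta.

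Poly(A) RNA was sequenced from the tibiae of 36 mice at 6 months of age, 12 in each of 3 groups with 6 males and 6 females each. Wild-type mice were labelled as not treated, and were not injected. The other groups were LMNA G/G mice, which carry 2 copies of a human transgene (a bacterial artificial chromosome that holds LMNA with the mutation of Hutchinson-Gilford progeria) and keep their own Lmna; they had been injected behind the eye at P14, 14 days after birth, with saline or with ABE. ABE, an adenine base editor split over a pair of AAV vectors, was designed to turn the mutant base of the transgene back. The saline group received no vector, so vector and editing cannot be told apart. Wild-type mice were not injected, so genotype and injection cannot be told apart. They were also numbered in a series of their own, so genotype and any batch that followed the numbers cannot be told apart. The labels name no batch, and the paper describes the groups as littermates. Epiphyses and marrow had been removed before extraction, which leaves mostly cortical bone. In such bulk tissue, fewer cells of a type and less RNA per cell cannot be told apart.

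The deposited values are TPM (reads corrected for gene length and library total), and they are given here as scaled TPM, divided by a median ratio factor for each library. Libraries held between 48064068 and 116206662 reads on genes. The library of ABE-treated mouse 1, a female, stood apart: its factor was 0.219, against 0.835 to 1.57 in wild-type and saline-treated mice and 0.610 to 1.32 in the other ABE-treated mice. The shortest genes, whose TPM the division by length inflates, took 96.6% of its TPM, against 84.7% to 93.0% in the other libraries. Factors were lower in the ABE group as a whole, with medians of 1.20 in wild-type, 1.10 with saline and 0.878 with ABE. The other females given ABE had factors of 0.610 to 0.972. Osteocyte markers were present in every library, with a summed level of 10.4 to 48.8 scaled TPM in wild-type, 170 to 490 with saline and 173 to 346 with ABE, and all 5 tested markers were higher in both LMNA G/G groups than in wild-type. Skeletal muscle markers were present as well, with a median sum of 765 scaled TPM in wild-type, 1601 with saline and 4802 with ABE. The 5 tested markers of megakaryocytes and platelets were lower in each comparison, with median sums of 178 scaled TPM in wild-type, 92.4 with saline and 47.1 with ABE. No marker of these lists was at 0 in every library. The part of other cells in the results was tested only with covariates, given below. These were mean log2 levels of the skeletal muscle markers, or of the neutrophil, B cell and erythroid markers. With TPM as deposited, the median log2 fold change of all genes moved from 0.02 to -0.13 for saline and from -0.02 to -0.42 for ABE against wild-type, and the genes called in the latter comparison moved from 5576 higher and 5734 lower to 1468 higher and 9462 lower.

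In wild-type tibia the highest of the 10 levels was that of Tgfb1, at 12.8 ± 1.33 scaled TPM (SD, n = 12), and its range did not overlap that of the next gene, Tgfbi, at 7.12 ± 1.36, although the highest Ltbp4 value, 11.8, reached into it. Tgfb2 had the lowest level, at 0.758 ± 0.323 scaled TPM, a mean below the lowest value of every other member, and overlapped only Tgfb3, whose lowest value was 1.23. Between them, Ltbp4, Tgfbr2, Ltbp2, Ltbp3, Tgfb3, Ltbp1 and Tgfbr1 followed in this order from 6.18 to 2.69 scaled TPM, and each overlapped its neighbour. In saline-treated mice Tgfb1 was again the highest without overlap, while Tgfb2 had moved to rank 8 and Ltbp2 was the lowest at 2.96 ± 0.781 scaled TPM. In ABE-treated mice Ltbp4 was the highest at 10.4 ± 2.68 scaled TPM, with a range that overlapped that of Tgfb1 at 8.98 ± 2.07.

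**Figure D1:**
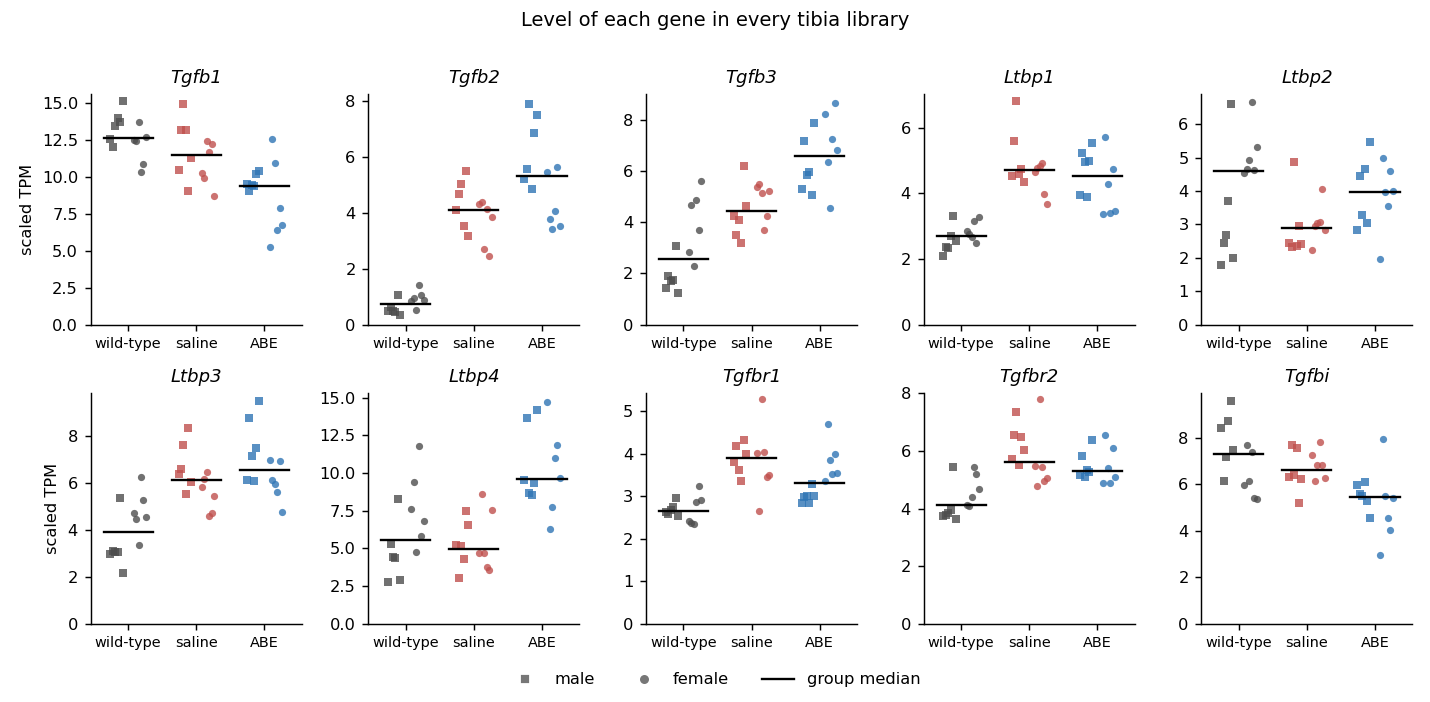
Level of each of the 10 genes in every library as scaled TPM (vertical axis, from 0), by group. Each mouse is a point, and a line marks the median of 12 mice. The wild-type points of Tgfb2 and Ltbp1 lie below all points of both LMNA G/G groups, and the other 8 genes overlap.

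Differences between groups were tested with limma on log2(scaled TPM + 0.5) with sex as a covariate, and called at a Benjamini-Hochberg adjusted p under 0.05 over the 16123 genes. In saline-treated against wild-type mice 6 of the 10 genes rose (Tgfb2, Tgfb3, Ltbp1, Ltbp3, Tgfbr1 and Tgfbr2), where 27.5% of all genes were called higher. None of the 10 was called lower, against 24.9% of all genes; at an unadjusted p under 0.05 Ltbp2 was lower, and 9360 of all genes differed in either direction. In ABE-treated against wild-type mice 7 genes rose, those 6 and Ltbp4, where 34.6% of all genes were called higher. Tgfb1 and Tgfbi fell, where 35.6% of all genes were called lower. In ABE-treated against saline-treated mice Tgfb2, Tgfb3 and Ltbp4 rose, with 22.9% of all genes called higher, and Tgfb1 and Tgfbi fell, with 25.1% called lower. The median log2 fold change of the 10 genes was 0.42, 0.46 and 0.02 in these comparisons, and that of all genes 0.02, -0.02 and -0.02. Each comparison shares a group with the others, so their results are not independent.

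Groups that did not overlap were fewer. Against wild-type, Tgfb2 and Ltbp1 were higher in all 12 saline-treated mice, a separation found in 3.01% of all genes, and in all 12 given ABE, found in 4.09%. No member lay below wild-type without overlap, against 3.65% of genes for saline and 4.55% for ABE. Between the LMNA G/G groups no member separated, and only 0.0186% of all genes did so upward and 0.0124% downward.

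**Figure D2:**
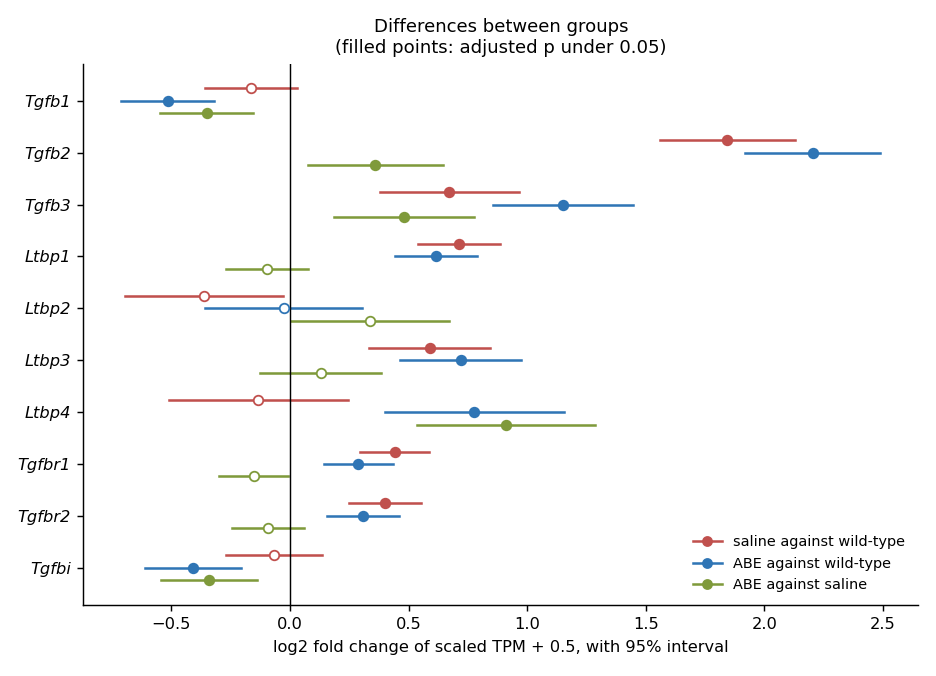
Log2 fold change of each of the 10 genes (horizontal axis, scaled TPM + 0.5) in the 3 comparisons, with 95% intervals from limma and filled points at an adjusted p under 0.05. Tgfb2 lies farthest from 0 in both comparisons with wild-type, at 1.84 and 2.20.

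Promoter sequence is shown for Tgfb2, the member that differed most, for Tgfb1, the ligand that moved the other way in ABE-treated mice, and for Ltbp1, the other gene whose groups did not overlap. Each is the 250 bases before the RefSeq start site on GRCm38.p6, read 5′ to 3′ on the gene's strand, from chr1:186705990-186706239 (minus strand), chr7:25686752-25687001 (plus strand) and chr17:75005279-75005528 (plus strand, the first of 2 Ltbp1 start sites). Capitals mark the CRE core TGACG, the TATA box TATAAA and the GC box GGGCGG on either strand, and in Ltbp1 the full CRE TGACGTCA, which holds the core on both strands.
Tgfb2: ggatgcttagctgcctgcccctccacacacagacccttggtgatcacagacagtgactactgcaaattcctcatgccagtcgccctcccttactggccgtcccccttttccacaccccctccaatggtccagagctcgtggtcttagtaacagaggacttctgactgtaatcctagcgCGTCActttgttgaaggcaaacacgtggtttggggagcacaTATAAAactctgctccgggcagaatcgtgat
Tgfb1: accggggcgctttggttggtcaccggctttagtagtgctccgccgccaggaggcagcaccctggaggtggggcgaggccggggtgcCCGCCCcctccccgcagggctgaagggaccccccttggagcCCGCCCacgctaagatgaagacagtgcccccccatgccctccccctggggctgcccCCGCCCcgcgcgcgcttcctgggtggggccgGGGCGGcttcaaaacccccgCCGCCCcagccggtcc
Ltbp1: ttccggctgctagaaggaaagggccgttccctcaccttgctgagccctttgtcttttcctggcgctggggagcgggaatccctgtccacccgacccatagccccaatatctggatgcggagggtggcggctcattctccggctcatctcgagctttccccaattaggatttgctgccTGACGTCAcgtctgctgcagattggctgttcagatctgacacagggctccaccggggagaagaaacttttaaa

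The promoters differed in composition. That of Tgfb2 was 53.6% G and C and held a TATA box at -31 from the start site, a CRE core at -72 on the other strand and no GC box. That of Tgfb1 was 75.2% G and C and held 5 GC boxes, no TATA box and no CRE core. The Ltbp1 promoter was 56.8% G and C and held the palindromic CRE at -73. In the table's 32841 promoters of the same length, the TATA box was found in 12.4%, the CRE core in 17.8%, the CRE in 1.55% and the GC box in 32.7%. The other motifs searched on both strands were the SMAD box CAGAC (42.2% of promoters), the CCAAT box CCAAT (33.9%), the E-box CACGTG (6.02%) and the AP-1 site TGANTCA (6.75%). Tgfb2 held 2 SMAD boxes, at -221 and -204, 1 CCAAT box at -130 and an E-box at -51, and Tgfb1 held none of these. The Ltbp1 promoter shown held 1 SMAD box at -64, 3 CCAAT boxes at -148, -92 and -53, and no E-box. In all, 9 of the 10 symbols had a promoter in the table, the exception being Tgfb3. No AP-1 site was found in any of them. A match is a run of letters and says nothing of binding.

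Tgfb2, on chromosome 1 from 186622792 to 186705989 on the minus strand, encodes the ligand whose receptor binding depends most on the co-receptor betaglycan. The 12 wild-type mice spanned 0.338 to 1.41 scaled TPM with a median of 0.738, the 12 mice given saline 2.45 to 5.48 with a median of 4.11, and the 12 given ABE 3.43 to 7.87 with a median of 5.32. The highest wild-type mouse thus lay below the lowest mouse of either LMNA G/G group, while the LMNA G/G groups overlapped, with 5 of 12 ABE-treated mice above every saline-treated mouse. The log2 fold change was 1.84 (SE 0.14, limma adjusted p = 2.96e-12) for saline and 2.20 (SE 0.14, adjusted p = 4.97e-14) for ABE against wild-type. With the skeletal muscle covariate the saline and ABE differences were 1.67 and 1.86. With the neutrophil, B cell and erythroid covariates they were 1.57 and 1.85, all called. Osteocyte markers moved with it, 5 of 5 higher with a median log2 fold change of 2.79 for saline and 2.43 for ABE, and their part in the result was not tested. ABE-treated mice were higher than saline-treated mice by 0.36 (SE 0.14, adjusted p = 0.0342). That call was lost on leaving out any of 9 libraries (ABE-treated mice 1, 5, 9, 11 or 12, saline-treated mice 3, 5, 10 or 12), with differences of 0.31 to 0.35 and adjusted p up to 0.0689, and under 7 of 14 other settings, among them the muscle covariate, at 0.19 (adjusted p = 0.389). Exons of Tgfb2 overlap Gm29491 on the other strand, and the library kit keeps strand.

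Tgfb3, on chromosome 12 from 86056745 to 86079041 on the minus strand, encodes the third ligand, known from palate and scar formation. Wild-type levels ran from 1.23 to 5.61 scaled TPM (median 2.57), those of mice given saline from 3.18 to 6.20 (median 4.45), and those of mice given ABE from 4.57 to 8.66 (median 6.60). All groups overlapped, although every LMNA G/G mouse was above the wild-type median, and 9 of 12 ABE-treated mice were above every wild-type mouse. Tgfb3 rose by 0.67 (SE 0.15, limma adjusted p = 2.54e-04) with saline and by 1.15 (SE 0.15, adjusted p = 3.91e-08) with ABE against wild-type, and by 0.48 (SE 0.15, adjusted p = 0.00796) from saline to ABE. The call of the last difference was lost under 4 of 14 alternatives: it was 0.22 (adjusted p = 0.241) with the muscle covariate, 0.28 (adjusted p = 0.244) with the neutrophil, B cell and erythroid covariates, 0.13 (adjusted p = 0.586) with TPM as deposited and 0.47 (adjusted p = 0.0648) in females alone. The saline difference from wild-type was 1.05 (adjusted p = 9.57e-05) in males alone and 0.30 (adjusted p = 0.280) in females alone, and 0.46 (adjusted p = 0.0681) with the neutrophil, B cell and erythroid covariates. Exons of Gm37804 and Gm48008 overlap it on the other strand.

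Tgfb1, on chromosome 7 from 25687002 to 25705077 on the plus strand, encodes the most abundant ligand of bone matrix and is also carried by platelets and blood cells. It was at 10.4 to 15.1 scaled TPM in wild-type mice (median 12.6), at 8.72 to 15.0 after saline (median 11.5) and at 5.25 to 12.5 after ABE (median 9.42). Below every wild-type mouse were 4 of 12 mice given saline and 9 of 12 given ABE. The saline difference of -0.16 (SE 0.096, 95% interval -0.36 to 0.03) did not pass the test (limma adjusted p = 0.15). Tgfb1 fell by 0.52 (SE 0.096, adjusted p = 1.72e-05) with ABE against wild-type and by 0.35 (SE 0.096, adjusted p = 0.00419) against saline. In females alone the latter was -0.42 (adjusted p = 0.0662) and in males alone -0.28 (adjusted p = 0.0515). Markers of megakaryocytes and platelets fell in the same comparisons, 5 of 5 with a median log2 fold change of -1.92 against wild-type and -0.94 against saline, as they did with saline against wild-type (-0.93), and their part in the level and share of Tgfb1 was not tested. Muscle markers went the other way with ABE, 7 of 7 higher than in wild-type and 6 of 7 higher than with saline. Lower with ABE than in wild-type were 2 of 7 neutrophil, 6 of 6 B cell and 4 of 5 erythroid markers. Against saline these were 6 of 7, 1 of 6 and 5 of 5. The ABE difference of Tgfb1 from wild-type was -0.26 (adjusted p = 0.0682) with the neutrophil, B cell and erythroid covariates and -0.16 (adjusted p = 0.217) with the muscle covariate. Its difference from saline was then -0.23 (adjusted p = 0.149) and -0.17 (adjusted p = 0.145). The lowest value was that of ABE-treated mouse 1, the library with the lowest factor, without which the differences were -0.46 (adjusted p = 2.84e-05) and -0.30 (adjusted p = 0.00938).

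The ligand transcripts therefore had another make-up in each group. Shares were taken within each mouse from scaled TPM, which is corrected for gene length, so they do not depend on the scaling of a library, and differences were tested by permutation of group labels within sex (two-sided, 100000 resamples, 24 tests adjusted together, n = 12 per group). Tgfb1 made up 78.0% ± 9.34 (SD) of the ligand transcripts in wild-type mice, 57.1% ± 7.07 with saline and 42.9% ± 8.40 with ABE. All 12 ABE-treated mice and 10 of 12 saline-treated mice lay below every wild-type mouse. The difference was -21.0 percentage points with saline (permutation adjusted p = 9e-05) and -35.2 with ABE (adjusted p = 8e-05), and -14.2 between ABE and saline (adjusted p = 0.000868).

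The share of Tgfb2 was 4.57% ± 1.85 in wild-type mice, 19.8% ± 3.95 with saline and 25.1% ± 5.13 with ABE, with no overlap between wild-type and either LMNA G/G group. Between the LMNA G/G groups it differed by 5.33 points (permutation adjusted p = 0.00848), with 4 of 12 ABE-treated mice above all saline-treated mice. Tgfb3 rose from 17.4% ± 7.79 in wild-type to 23.1% ± 5.05 with saline (adjusted p = 0.0198) and 32.0% ± 7.2 with ABE (adjusted p = 9e-05). Its rise with saline was 9.53 points in males and 1.93 in females. The ranges over each library left out kept the direction of all 9 differences of ligand shares.

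**Figure D3:**
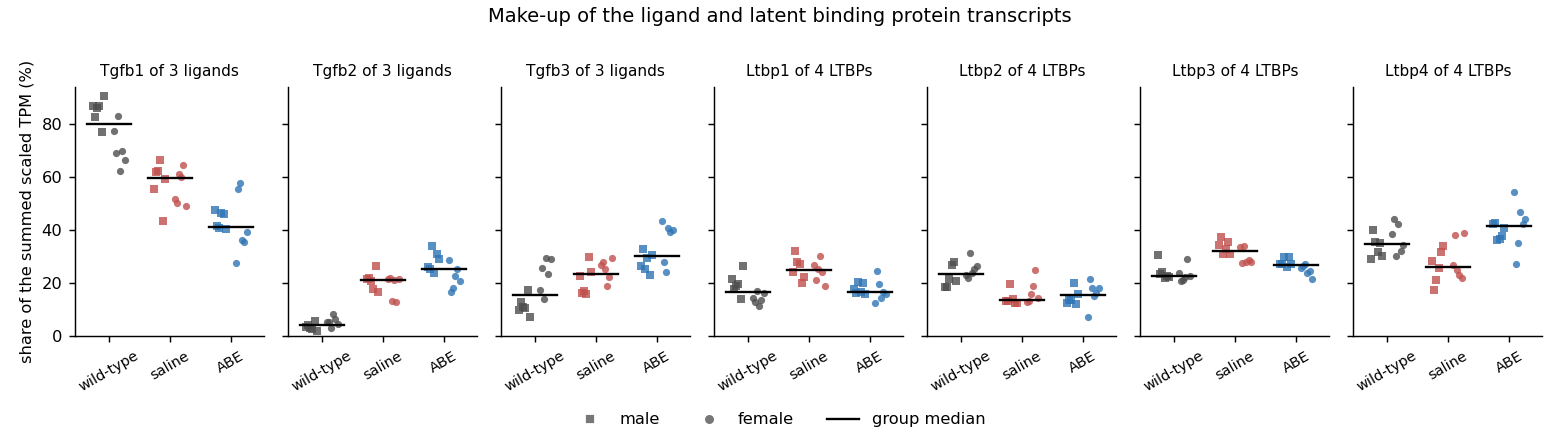
Share of each ligand in the summed scaled TPM of the 3 ligands, and of each latent binding protein in the sum of the 4 (vertical axes, percent). Each mouse is a point, and a line marks the median of 12 mice. The Tgfb1 share of all 12 ABE-treated mice lies below the wild-type points, and the Tgfb2 share of all LMNA G/G mice lies above them.

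Among the latent binding proteins, Ltbp1, which anchors the latent complex in fibrillin-rich matrix, lies on chromosome 17 from 75005568 to 75392512 on the plus strand. In wild-type mice the median was 2.69 scaled TPM (range 2.09 to 3.30), with saline it was 4.69 (range 3.68 to 6.79) and with ABE 4.52 (range 3.37 to 5.71). Every LMNA G/G mouse was above every wild-type mouse, and the LMNA G/G groups covered nearly the same range. Ltbp1 rose by 0.71 (SE 0.085, limma adjusted p = 3.04e-08) with saline and by 0.61 (SE 0.085, adjusted p = 1.95e-07) with ABE, and the difference between the LMNA G/G groups was -0.10 (95% interval -0.27 to 0.08, adjusted p = 0.355). With TPM as deposited the ABE difference from wild-type was 0.13 (adjusted p = 0.463), where the median of all genes was -0.42.

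Ltbp3, on chromosome 19 from 5740904 to 5758532 on the plus strand, is the family member whose loss in mice and people affects the skeleton and teeth. The 12 wild-type mice spanned 2.15 to 6.23 scaled TPM with a median of 3.90, the 12 mice given saline 4.58 to 8.31 with a median of 6.10, and the 12 given ABE 4.75 to 9.45 with a median of 6.53. Every LMNA G/G mouse was above the wild-type median, and the groups overlapped. Ltbp3 rose by 0.59 (SE 0.13, limma adjusted p = 2.19e-04) with saline and by 0.72 (SE 0.13, adjusted p = 6.89e-06) with ABE, and the LMNA G/G groups differed by 0.13 (95% interval -0.13 to 0.39). With the muscle covariate the ABE difference from wild-type was 0.36 (adjusted p = 0.0664), and in females alone the saline difference was 0.21 (adjusted p = 0.261). Both calls were lost with TPM as deposited, at 0.42 (adjusted p = 0.0762) for saline and 0.21 (adjusted p = 0.315) for ABE.

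Ltbp4, which lies beside elastic fibers and on chromosome 7 from 27305136 to 27337692 on the minus strand, had another pattern. Wild-type levels ran from 2.79 to 11.8 scaled TPM (median 5.55), those of mice given saline from 3.06 to 8.61 (median 4.94), and those of mice given ABE from 6.29 to 14.7 (median 9.58). The saline-treated range lay within that of wild-type, and 9 of 12 ABE-treated mice were above every saline-treated mouse. The saline difference from wild-type was -0.13 (SE 0.18, 95% interval -0.51 to 0.24, limma adjusted p = 0.564), and the gene rose with ABE by 0.78 (SE 0.18, adjusted p = 3.89e-04) against wild-type and by 0.91 (SE 0.18, adjusted p = 7.26e-04) against saline. Muscle markers rose with ABE as well, 7 of 7 against wild-type and 6 of 7 against saline. With saline against wild-type 5 of 7 also rose, where Ltbp4 did not. With the muscle covariate, Ltbp4 differed by -0.02 (adjusted p = 0.925) between ABE and wild-type and by 0.51 (adjusted p = 0.0160) between ABE and saline. Between saline and wild-type it then differed by -0.53 (adjusted p = 0.00153). In females alone the ABE difference from wild-type was 0.39 (adjusted p = 0.198), against 1.16 (adjusted p = 4.70e-04) in males. It was 0.35 (adjusted p = 0.177) with the neutrophil, B cell and erythroid covariates and 0.24 (adjusted p = 0.304) with TPM as deposited.

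Ltbp2, on chromosome 12 from 84783212 to 84876532 on the minus strand, was not called in level in any of the 3 comparisons. It was at 1.78 to 6.67 scaled TPM in wild-type mice (median 4.59), at 2.23 to 4.85 after saline (median 2.89) and at 1.96 to 5.47 after ABE (median 3.98). Although 11 of 12 saline-treated mice were below the wild-type median, wild-type mice ranged as low as any. The differences were -0.36 (SE 0.16, limma adjusted p = 0.0602) for saline against wild-type, -0.03 (95% interval -0.36 to 0.30, adjusted p = 0.892) for ABE against wild-type and 0.34 (SE 0.16, adjusted p = 0.0873) for ABE against saline. The first was called on leaving out wild-type mouse 1, 2, 7 or 11, saline-treated mouse 5 or 9 or ABE-treated mouse 1, at -0.44 to -0.36 (adjusted p 0.0205 to 0.0494). It was also called in females alone, at -0.67 (adjusted p = 0.00892) against -0.05 (adjusted p = 0.873) in males, after rescaling without the shortest genes (-0.55, adjusted p = 0.0112) and after quantile normalization (-0.39, adjusted p = 0.0439). The ABE difference from wild-type was called with TPM as deposited (-0.49, adjusted p = 0.0441), where the median of all genes was -0.42, and in females alone (-0.40, adjusted p = 0.0488), against 0.35 (adjusted p = 0.229) in males. The last was called when only its own 2 groups were fitted, and without ABE-treated mouse 1 (0.42, adjusted p = 0.0276) or saline-treated mouse 9 (0.41, adjusted p = 0.0346). Exons of D030025P21Rik overlap Ltbp2 on the other strand.

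As shares of the 4 LTBP transcripts, Ltbp1 held 17.1% in wild-type, 25.1% with saline and 17.6% with ABE, Ltbp2 23.9%, 15.5% and 15.4%, Ltbp3 23.8%, 31.8% and 26.4%, and Ltbp4 35.2%, 27.6% and 40.5%. All 4 shares differed between saline-treated and wild-type mice, with permutation adjusted p from 9e-05 to 0.00855. Between ABE and saline, Ltbp4 gained 12.9 points (adjusted p = 0.00052), while Ltbp1 lost ground by -7.47 points (adjusted p = 0.000262) and Ltbp3 by -5.38 (adjusted p = 8e-05). The levels of Ltbp1 and Ltbp3 were not called there (limma adjusted p = 0.355 and 0.408), and a share falls when another member rises. Shares were not fitted with the muscle covariate. Against wild-type, ABE-treated mice had a lower share of Ltbp2 by -8.46 points (adjusted p = 9e-05), with 10 of 12 mice below every wild-type mouse, and a higher share of Ltbp3 by 2.62 (adjusted p = 0.028). The shares of Ltbp1 (adjusted p = 0.775) and Ltbp4 (adjusted p = 0.0505) did not pass the test there, nor did that of Ltbp2 between ABE and saline (adjusted p = 0.970).

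Both receptors rose in both comparisons with wild-type, although these calls depended on how libraries were scaled. Tgfbr1, the type I kinase that phosphorylates SMAD2 and SMAD3, lies on chromosome 4 from 47353222 to 47414931 on the plus strand. In wild-type mice the median was 2.64 scaled TPM (range 2.35 to 3.24), with saline it was 3.91 (range 2.65 to 5.28) and with ABE 3.32 (range 2.83 to 4.69). The separation was broken by few mice with saline, where 11 of 12 were above every wild-type mouse, and by more with ABE, where 7 of 12 were. Tgfbr1 rose by 0.44 (SE 0.072, limma adjusted p = 5.63e-06) with saline and by 0.29 (SE 0.072, adjusted p = 6.49e-04) with ABE. The difference of -0.15 between ABE and saline (adjusted p = 0.0765) did not pass the test, and did so without saline-treated mouse 2 (-0.20, adjusted p = 0.0117) or ABE-treated mouse 2 (-0.19, adjusted p = 0.0207). In males alone it was -0.32 (adjusted p = 0.00203), and in females 0.02 (adjusted p = 0.924).

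Tgfbr2, the type II receptor that binds the ligand first, lies on chromosome 9 from 116084293 to 116175360 on the minus strand. The 12 wild-type mice spanned 3.64 to 5.46 scaled TPM with a median of 4.11, the 12 mice given saline 4.78 to 7.81 with a median of 5.61, and the 12 given ABE 4.88 to 6.56 with a median of 5.30. All LMNA G/G mice were above the wild-type median, and 8 of 12 saline-treated and 4 of 12 ABE-treated mice were above every wild-type mouse. The gene rose by 0.40 (SE 0.075, limma adjusted p = 3.90e-05) with saline and by 0.31 (SE 0.075, adjusted p = 4.64e-04) with ABE, and in females alone these differences were 0.23 (adjusted p = 0.153) and 0.21 (adjusted p = 0.108). With the neutrophil, B cell and erythroid covariates the ABE differences were 0.15 (adjusted p = 0.182) for Tgfbr1 and 0.22 (adjusted p = 0.103) for Tgfbr2. With TPM as deposited, both receptors in ABE-treated mice turned to -0.20 against wild-type (adjusted p = 0.243 for Tgfbr1 and 0.272 for Tgfbr2), where the median of all genes was -0.42. The saline differences kept their sign there, at 0.28 (adjusted p = 0.161) and 0.23 (adjusted p = 0.298). After rescaling without the shortest genes, the ABE differences were 0.10 (adjusted p = 0.3195) for Tgfbr1 and 0.11 (adjusted p = 0.300) for Tgfbr2, and the saline differences 0.26 (adjusted p = 0.0120) and 0.21 (adjusted p = 0.0554), where the medians of all genes were -0.19 and -0.14. The ratio of Tgfbr2 to Tgfbr1 within a mouse, which no scaling changes, was 0.69 ± 0.16 on the log2 scale in wild-type, 0.62 ± 0.17 with saline and 0.70 ± 0.21 with ABE, and none of the 3 differences passed the test (permutation adjusted p = 0.389, 0.960 and 0.276). Against wild-type the sexes went opposite ways in this ratio. ABE-treated mice differed from wild-type mice by 0.29 in males and by -0.28 in females, which cancel in the pooled difference of 0.01, and saline-treated mice by 0.10 and -0.24. All 6 females given ABE, at 0.47 to 0.62, lay below all 6 wild-type females, at 0.68 to 0.92, whereas males given ABE, at 0.68 to 1.08, overlapped wild-type males, at 0.52 to 0.88. The difference between the sexes in this ratio was not tested.

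Tgfbi, on chromosome 13 from 56609523 to 56639562 on the plus strand, encodes a matrix protein that binds collagen and integrins. Wild-type levels ran from 5.35 to 9.60 scaled TPM (median 7.28), those of mice given saline from 5.2 to 7.82 (median 6.60), and those of mice given ABE from 2.94 to 7.95 (median 5.43). All groups overlapped, with 11 of 12 ABE-treated mice below the wild-type median and 5 of 12 below every wild-type mouse. The saline difference was -0.07 (95% interval -0.27 to 0.14, limma adjusted p = 0.588), and Tgfbi fell with ABE by 0.41 (SE 0.10, adjusted p = 5.24e-04) against wild-type and by 0.34 (SE 0.10, adjusted p = 0.00656) against saline. Macrophage and monocyte markers moved with it, 4 of 6 lower in ABE-treated than in wild-type mice and 5 of 6 lower than in saline-treated mice, with median sums of 214 scaled TPM in wild-type, 249.2 with saline and 178 with ABE, and their part in the result was not tested. With the muscle covariate the ABE differences were -0.09 (adjusted p = 0.593) and -0.18 (adjusted p = 0.186). The former was -0.34 (adjusted p = 0.0892) in females alone, and the latter -0.23 (adjusted p = 0.124) in males alone and -0.21 (adjusted p = 0.110) with the neutrophil, B cell and erythroid covariates. Without ABE-treated mouse 1, the lowest, the differences were -0.35 (adjusted p = 0.00106) and -0.28 (adjusted p = 0.0149).

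Sex was examined through its own term and through the difference of each comparison between females and males. Females did not differ from males for any member over the 3 groups, against 0.533% of all genes called. At an unadjusted p under 0.05, Tgfb3 (0.42, p = 0.00128, limma adjusted p = 0.108) and Tgfb1 (-0.18, adjusted p = 0.374) differed, as did 1699 of all genes. With the muscle covariate, Tgfb3 was higher in females by 0.43 (adjusted p = 0.0103). The difference between saline-treated and wild-type mice depended on sex for 1 member, Ltbp3, against 1.58% of all genes, and that between ABE-treated and wild-type mice for 2 members, Tgfb2 and Ltbp3, where 3.75% of all genes did. For ABE against saline no member differed, against 0.0558% of all genes. At an unadjusted p under 0.05 the interaction with sex was also found for Tgfb2 (-0.66, limma adjusted p = 0.105), Tgfb3 (-0.75, adjusted p = 0.0911) and Tgfbr2 (-0.35, adjusted p = 0.144) with saline against wild-type, as it was for 3710 of all genes. With ABE against wild-type it was found for Tgfb3 (-0.78, adjusted p = 0.0737), Ltbp2 (-0.75, adjusted p = 0.151), Ltbp4 (-0.77, adjusted p = 0.208) and Tgfbr1 (0.31, adjusted p = 0.181), and for 3248 of all genes. With ABE against saline it was found for Tgfbr1 (0.34, adjusted p = 0.213) and for 2534 of all genes.

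In wild-type mice the male mean of Tgfb2 was below the female mean, at 0.573 ± 0.255 scaled TPM (SD, n = 6) against 0.943 ± 0.287, whereas with ABE it was above, at 6.30 ± 1.27 against 4.31 ± 0.974. The ratio of means of ABE to wild-type was 11 in males and 4.57 in females, and that of saline to wild-type 7.54 and 3.85. The log2 fold change with ABE was smaller in females by -0.94 (SE 0.23, limma adjusted p = 0.0255), a call that was lost without ABE-treated mouse 6 or 12 or wild-type mouse 6 or 11 (-0.89 to -0.85, adjusted p up to 0.0587). Ltbp3 was at 3.27 ± 1.08 scaled TPM in wild-type males and 4.76 ± 0.957 in wild-type females, at 6.73 ± 1.04 and 5.53 ± 0.764 with saline, and at 7.50 ± 1.38 and 6.05 ± 0.841 with ABE. The order of the male and female means of both genes was thus the opposite in wild-type and LMNA G/G mice. The female difference from the male log2 fold change of Ltbp3 was -0.76 with saline (SE 0.20, adjusted p = 0.0492) and -0.78 with ABE (SE 0.20, adjusted p = 0.0297). The first was lost on leaving out any of 27 libraries (adjusted p up to 0.120). The second was lost without ABE-treated mouse 4, 6, 8 or 12 or wild-type mouse 6, 7, 9 or 11 (adjusted p up to 0.0706). Wild-type males also had lower marker sums than wild-type females, with medians of 650 against 887 scaled TPM for skeletal muscle and 18.5 against 39.9 for osteocytes, and their part in these differences was not tested.

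**Figure D4:**
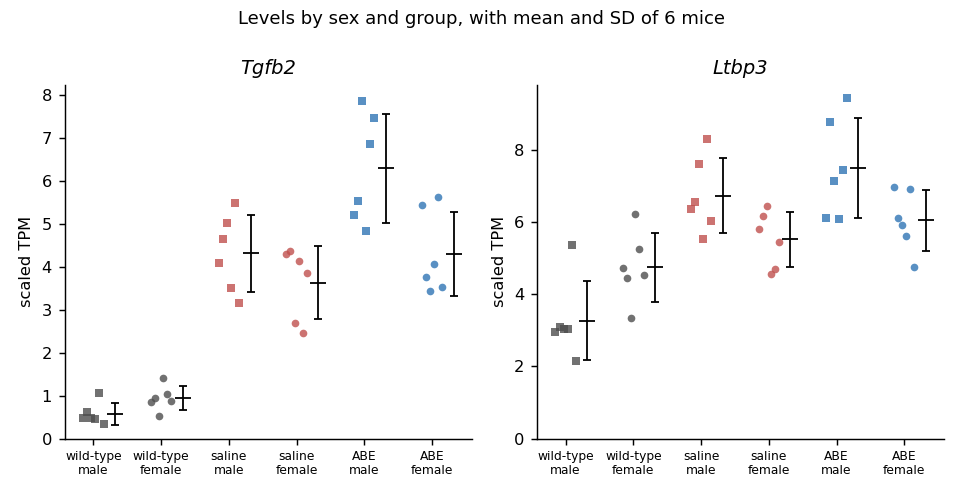
Scaled TPM (vertical axes, from 0) of Tgfb2 and Ltbp3 in males (squares) and females (circles) of each group, with the mean and SD of 6 mice. In wild-type the male mean is the lower for both genes (0.573 against 0.943 for Tgfb2), and in both LMNA G/G groups the male mean is the higher.

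Mice of the same group and sex also differed from each other, and some members were correlated over these differences. Of 45 pairs of members, 16 had a Pearson correlation with a permutation adjusted p under 0.05 over the 36 mice after the means of group and sex were removed, and 14 of these were positive. The share of such pairs among all genes was not calculated. Whether the count is particular to these genes was therefore not tested. The closest pairs were Tgfb3 and Ltbp4 (r = 0.77, rho = 0.79, permutation p = 1e-05 for both, the smallest that 100000 resamples can give, adjusted p = 0.00015 and 0.000225) and Tgfbr1 and Tgfbr2 (r = 0.75, rho = 0.81, with the same p-values). Without the 2 mice farthest from the median, r was 0.71 and 0.66, and within the wild-type, saline and ABE groups it was 0.78, 0.77 and 0.78 for the former and 0.76, 0.77 and 0.73 for the latter. Tgfb1 went against Ltbp4 (r = -0.57, rho = -0.58, permutation p = 0.00023 and 0.00081, adjusted p = 0.0012 and 0.00484) and against Tgfb3 (r = -0.46, rho = -0.50, permutation p = 0.0041 and 0.0033, adjusted p = 0.0123 and 0.0099), with r of -0.49 for both without the 2 farthest mice. Within the wild-type, saline and ABE groups r was -0.37, -0.71 and -0.71 for Tgfb1 with Ltbp4 and -0.35, -0.70 and -0.52 for Tgfb1 with Tgfb3. These 2 negative relations turned with TPM as deposited, at 0.15 and 0.41, where members shared the differences in library scale.

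Among the 4048 genes that averaged 5 TPM or more, those whose residuals over the 36 mice were most like Tgfb1 were Ttyh3 (r = 0.94), Os9 (0.94) and Itgb3 (0.93). Tgfb2 was most like Ackr3 (r = 0.82), which encodes a scavenging chemokine receptor, Fgfr1 (0.80) and Pcsk6 (0.79). Tgfb3 was most like Itgb5 (r = 0.82), Zcchc24 (0.81) and Hspg2 (0.78), which encodes the matrix proteoglycan perlecan. Tgfbi was most like Tnfrsf1b (r = 0.83), B4galnt1 (0.83) and Man2b1 (0.82). These values are a description of the same libraries, which share depth and cell make-up.

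The other genes of the pathway were read from 4 lists, to be set against the 27.5% of all genes called higher and 24.9% lower with saline, 34.6% and 35.6% with ABE, and 22.9% and 25.1% between ABE and saline. Of 14 tested latency partners and activators, 3 were higher and 4 lower in saline-treated than in wild-type mice, 6 and 5 in ABE-treated against wild-type mice, and 3 and 4 in ABE-treated against saline-treated mice. The integrin chain Itgav, which releases TGF-beta from its propeptide, rose by 0.71 with saline (limma adjusted p = 9.49e-08) and by 0.50 with ABE (adjusted p = 1.39e-05). Itgb1, a partner chain, rose by 0.33 with saline (adjusted p = 2.75e-05). That call of Itgb1 was lost in females alone, with TPM as deposited and after rescaling without the shortest genes. Itgb3, a chain of platelets and osteoclasts, fell from 28.9 ± 4.02 scaled TPM (SD, n = 12) in wild-type to 19.2 ± 6.20 with saline and 11.9 ± 5.76 with ABE, a log2 change of -0.64 (adjusted p = 0.00575) and -1.37 (adjusted p = 2.07e-07). Thbs1, encoding thrombospondin 1, an activator stored in platelets, fell from 30.8 ± 4.58 to 23.3 ± 7.25 and 16.9 ± 6.12 (adjusted p = 0.0337 and 2.47e-05). Nrros, encoding a latency partner of macrophages and microglia, fell by 0.44 (adjusted p = 0.00432) with saline and by 0.88 (adjusted p = 3.54e-07) with ABE. All 3 were lower with ABE than with saline as well, by 0.73, 0.47 and 0.44 (adjusted p = 0.00314, 0.0255 and 0.0058). Markers of megakaryocytes and platelets fell in each of these comparisons (5 of 5). Of 8 osteoclast markers, 8 were higher with saline and 5 with ABE against wild-type, and 7 were lower with ABE than with saline. Of 6 macrophage and monocyte markers, 1 was higher and 0 lower with saline against wild-type. With ABE, 4 of these 6 were lower than in wild-type and 5 lower than with saline. The part of these cells in the result was not tested. The falls from saline to ABE were lost for all 3 genes in females alone, with the neutrophil, B cell and erythroid covariates and with the muscle covariate, which left Itgb3 called in 11, Thbs1 in 8 and Nrros in 10 of 14 alternatives. The saline falls from wild-type were called in 11, 7 and 12 of 14, and the ABE falls from wild-type in 14, 12 and 14.

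Mmp2, a matrix metalloproteinase, rose with ABE by 0.96 against wild-type (limma adjusted p = 9.20e-05) and by 0.53 against saline (adjusted p = 0.0301), and Itgb5 by 0.47 (adjusted p = 3.69e-04) and 0.38 (adjusted p = 0.00738). Against saline these rises were called in 6 and 10 of 14 alternatives and were lost with both sets of covariates, and against wild-type in 11 and 10. The median log2 fold change of the 14 genes was 0.09, 0.08 and -0.03 in the 3 comparisons.

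Of 9 co-receptors and binding proteins, 5 were higher and 1 lower with saline, 6 higher with ABE against wild-type, and 2 higher with ABE against saline, with none lower in either. The proteoglycan gene Bgn rose from 18.5 ± 5.18 scaled TPM in wild-type to 32.8 ± 7.74 with saline (limma adjusted p = 1.65e-05) and 30.8 ± 7.57 with ABE (adjusted p = 4.05e-05). Vasn, whose product traps TGF-beta, rose by 0.69 (adjusted p = 6.74e-05) and 0.79 (adjusted p = 4.70e-06), and the co-receptor gene Eng by 0.41 with saline (adjusted p = 4.02e-05). In females alone the saline calls of Bgn and Eng and the ABE call of Bgn against wild-type were lost. With TPM as deposited the saline call of Eng and the ABE call of Bgn were lost. Dcn fell with saline by 0.47 (adjusted p = 0.0439) and rose from saline to ABE by 0.65 (adjusted p = 0.0082). Fmod rose with ABE by 0.98 against wild-type (adjusted p = 0.0204) and by 1.33 against saline (adjusted p = 0.00499). The fall of Dcn was called in 10 of 14 alternatives and ranged over them from -1.04 to 0.09, and its rise in 10 of 14. The rise of Fmod against wild-type was called in 9 of 14 with a range of -0.56 to 1.54, and that against saline in 11 of 14. With the neutrophil, B cell and erythroid covariates neither gene kept any of these calls, and with the muscle covariate both lost the rise from saline to ABE. Bambi, a pseudoreceptor that dampens the signal and that was named after its values were seen, went from 0.809 ± 0.308 scaled TPM in wild-type to 3.13 ± 0.657 with saline and 2.81 ± 0.464 with ABE. Its limma log2 fold change was 1.48 (adjusted p = 9.68e-13) and 1.36 (adjusted p = 3.98e-12). The 0.5 added before log2 lowers the fold change of a gene at this level. Over the 14 alternatives it ran from 1.19 to 2.01 with saline and from 0.956 to 1.87 with ABE. The list's median was 0.41, 0.73 and 0.01.

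Of 13 SMADs and regulators, 7 were higher and 1 lower with saline, 9 and 1 with ABE against wild-type, and 8 and 1 with ABE against saline. The last count did not hold with covariates or without scaling. It was 0 higher and 0 lower with the neutrophil, B cell and erythroid covariates, and the same with the muscle covariate. With TPM as deposited it was 0 higher and 2 lower. In males alone it was 2 higher. The saline count was 2 higher and 1 lower with TPM as deposited and in females alone, and 3 and 2 after rescaling without the shortest genes. With TPM as deposited the ABE count against wild-type was 2 higher and 5 lower. Smad7, the inhibitory SMAD that the pathway itself induces, rose from 2.98 ± 0.463 scaled TPM in wild-type to 4.19 ± 0.653 with saline (limma adjusted p = 3.57e-04) and 5.45 ± 1.27 with ABE (adjusted p = 3.96e-08), and from saline to ABE by 0.33 (adjusted p = 0.00619). Smad4, the shared partner, rose by 0.23 with saline (adjusted p = 3.99e-04) and by 0.43 with ABE (adjusted p = 3.03e-08). The saline calls of Smad7 and Smad4 were lost in females alone and with TPM as deposited. That of Smad4 was also lost after rescaling without the shortest genes. Smad3 rose with ABE by 0.42 against wild-type (adjusted p = 2.27e-06) and by 0.29 against saline (adjusted p = 0.00153), and the repressor gene Ski by 0.23 against saline (adjusted p = 0.0195). With TPM as deposited these signs turned for Smad3 (-0.09) and Smad4 (-0.10) with ABE against wild-type, and for Smad7 (-0.01), Smad3 (-0.04) and Ski (-0.12) against saline, where the medians of all genes were -0.42 and -0.27. The list's median was 0.12, 0.42 and 0.19.

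Of 10 target genes, 3 were higher and 2 lower with saline, and 7 and 2 with ABE against wild-type. With ABE against saline, 3 were higher and none lower. With the muscle covariate the ABE count against wild-type was 3 higher and 1 lower, with a median of -0.22. With TPM as deposited it was 3 and 3. The count against saline was 1 higher with the muscle covariate and 0 higher with the neutrophil, B cell and erythroid covariates. Cdkn1a, encoding the cell cycle inhibitor p21, which p53 also induces, rose from 1.74 scaled TPM in wild-type to 6.96 with saline and 8.16 with ABE, by 1.74 (limma adjusted p = 7.90e-13) and 1.96 (adjusted p = 3.83e-14). Postn, encoding the periosteal matrix protein periostin, rose by 0.94 (adjusted p = 0.00109) and 1.33 (adjusted p = 7.26e-06), and its saline call was lost in females alone. Fn1, encoding fibronectin, moved the other way, from 54.8 scaled TPM in wild-type to 14.3 with saline and 17.2 with ABE, with limma log2 fold changes of -1.80 (adjusted p = 1.55e-10) and -1.57 (adjusted p = 1.29e-09). Ccn2, a matricellular target, rose with ABE by 0.78 against wild-type (adjusted p = 2.27e-04). That call was lost in females alone, with the muscle covariate and with TPM as deposited. Col3a1 and Acta2 rose from saline to ABE by 1.28 (adjusted p = 0.00135) and 0.62 (adjusted p = 0.0308), where markers of fibroblasts and tendon (4 of 5 higher) and of smooth muscle and pericytes (4 of 5 higher) moved with them, and their part was not tested. The rise of Acta2 was called in 8 and that of Col3a1 in 13 of 14 alternatives. The list's median was 0.02, 0.66 and 0.38.

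**Figure D5:**
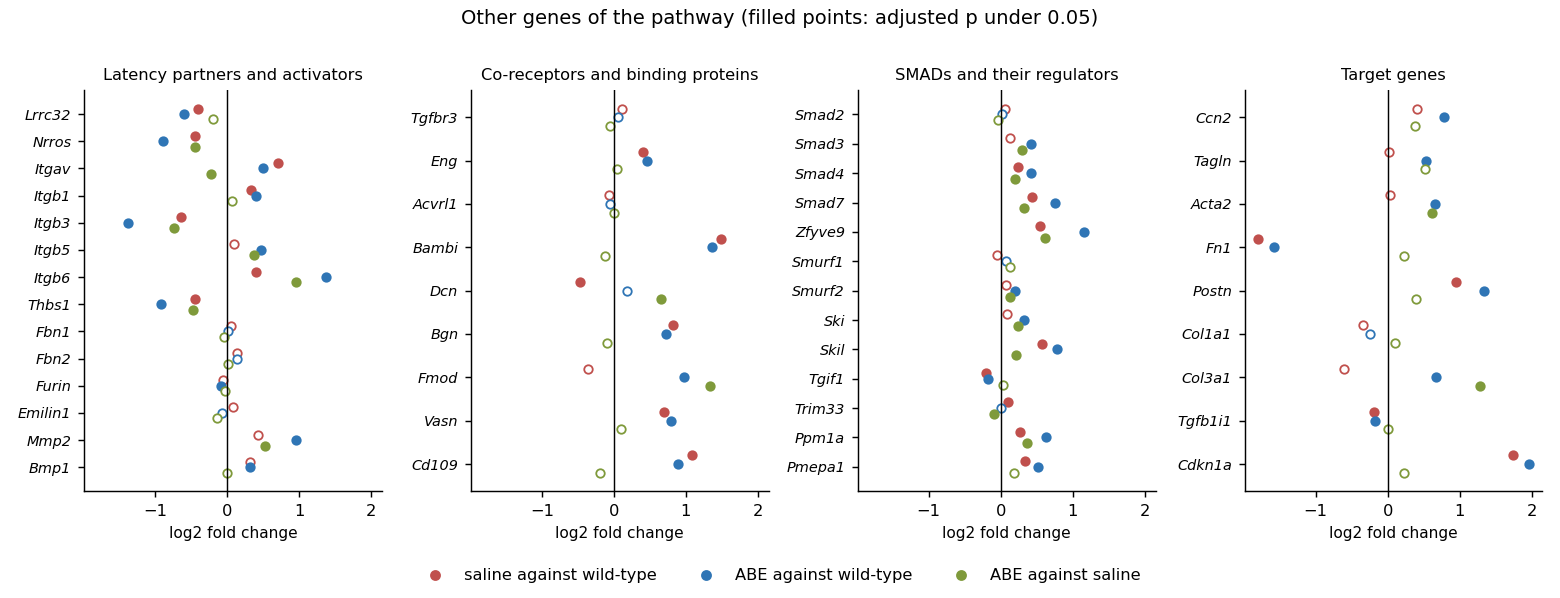
Log2 fold change (horizontal axes, scaled TPM + 0.5) of genes of the 4 pathway lists in the 3 comparisons, with filled points at an adjusted p under 0.05. Cdkn1a, at 1.74 and 1.96, and Fn1, at -1.80 and -1.57, are the farthest from 0 of the target genes drawn and point in opposite directions.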

How the data were processed

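Total RNA was extracted with TRIzol and treated with DNase, and TruSeq stranded mRNA libraries were sequenced as paired-end reads. Per the labels and methods, the authors aligned reads to GRCm38 with STAR (version 2.73a in the submitters' processing notes) and counted GENCODE genes with QoRTs. The deposited values are TPM; how the authors calculated them is not given in the sources used here. The share of G and C bases (a fraction, deposited in the same table) and the length of each gene were used in 1 alternative. All 36 libraries were mapped by column name, with 0 unmapped columns and 0 identical pairs.

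TPM were divided by median ratio factors, 0.5 was added before log2, and genes averaging 0.5 TPM or more were fitted with limma 3.58.1 (R 4.3.3) over the 36 libraries together, with sex as a covariate. Python 3.11.15 was used elsewhere. Reads were recovered from TPM as whole multiples (100% of values within 0.01 of a whole number) for depth and for limma-voom. Members had between 611 and 25297 reads in a library. Gene positions come from GENCODE vM21 on GRCm38, and promoters are from RefSeq. Mice, not cells, are the replicates. The members, lists and tests were chosen with earlier results of these data known. Every member is named, and from each pathway list at most 3 genes called in each direction with the largest changes and a group mean of at least 5 scaled TPM, unless the text says otherwise. Some genes are not reported here by name. The fit was tested on simulated data. Alternatives were other scalings, pseudocounts of 0.1 and 1, no filter or one at 25 TPM, and limma-voom. Others were removal of trends with GC content and length, either sex alone, mean log2 levels of markers as covariates, and each library left out.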

Additional observations from a re-analysis of the deposited data

Results flagged for a closer look

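The log2 fold change of Tgfb2 in ABE-treated against wild-type mice differed between the sexes by the interaction term of the fit, at -0.935 in females relative to males (SE 0.23, limma adjusted p = 0.0255), and it was called under all 8 alternatives that could give it. The change of Ltbp3 differed between the sexes in saline-treated against wild-type mice, at -0.762 (SE 0.20, adjusted p = 0.0492), and was called in 3 of 8 alternatives. The change of Ltbp3 in ABE-treated against wild-type mice differed by -0.783 (SE 0.20, adjusted p = 0.0297), and was called in 6 of 8. The same wild-type libraries enter all 3 values.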

How the results depend on the processing

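Over 14 alternatives and 36 fits that each left out 1 library, the direction and call held in all of them for Tgfb2 and Ltbp1 in saline-treated, and for Tgfb2 and Tgfb3 in ABE-treated against wild-type mice, as they did for Ltbp4 in ABE-treated against saline-treated mice. A filter at 25 TPM left no member and gave no value. No paired analysis was possible because the labels give the mice no replicate number, litter or day that ties a mouse of one group to a mouse of another; the numbers used here follow accession order and only name mice.

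With TPM as deposited, the counts of members were 3 higher with saline and 2 higher with ABE against wild-type, 1 higher and 5 lower with ABE against saline, and 5 different between the sexes. With the neutrophil, B cell and erythroid covariates they were 4 higher and 1 lower with ABE against wild-type, 1 higher and 0 lower with ABE against saline, and 1 different between the sexes. With the skeletal muscle covariate they were 1 lower with saline, 0 lower with ABE against wild-type, 1 higher and 0 lower with ABE against saline, and 1 different between the sexes. In females only, 3 were higher and 1 lower with saline, and 1 higher and 1 lower with ABE against saline; in males only, 1 was lower with ABE against saline. Lower with saline were also 2 after rescaling without the shortest genes and 1 after quantile normalization. The number of members whose group difference depended on sex was 1 after removal of GC content and length trends and 1 with no filter. With each library left out the counts ranged over 6 to 6 higher and 0 to 1 lower with saline, 7 to 7 and 2 to 2 with ABE against wild-type, 2 to 4 and 2 to 3 with ABE against saline, 0 to 0 between the sexes, and 0 to 5 for members whose group difference depended on sex (0 without ABE-treated mouse 6 or wild-type mouse 6 or 11, and 5 without wild-type mouse 10).

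The sign turned for Tgfb1 with saline under the muscle covariate (0.012), Ltbp4 with saline in males (0.20), Tgfbi with saline in females (0.11) and under the muscle covariate (0.093). For ABE against wild-type it turned for Ltbp2 after removal of GC and length trends (0.0018), in males (0.35), under the blood-cell covariates (0.13) and over the libraries left out (-0.10 to 0.059), for Ltbp4 under the muscle covariate (-0.023), and for Tgfbr1 (-0.20) and Tgfbr2 (-0.20) with TPM as deposited. For ABE against saline it turned for Ltbp3 with TPM as deposited (-0.21) and under the blood-cell (-0.10) and muscle (-0.052) covariates, and for Tgfbr1 in females (0.018). With TPM as deposited r was 0.41 for Tgfb1 with Tgfb3 and 0.15 for Tgfb1 with Ltbp4. Over the 14 alternatives the genes called higher with ABE against wild-type numbered 1 to 7 latency partners and activators, 2 to 6 co-receptors and binding proteins, 2 to 10 SMADs and regulators and 3 to 7 target genes. For ABE against saline these ranges were 1 to 3, 0 to 2, 0 to 9 and 0 to 4. For saline against wild-type they were 1 to 8, 2 to 5, 2 to 9 and 2 to 4. In the same order of lists, genes called lower numbered 1 to 5, 0 to 2, 0 to 2 and 1 to 3 with saline against wild-type. They numbered 4 to 7, 0 to 2, 1 to 5 and 1 to 3 with ABE against wild-type, and 0 to 7, 0 to 2, 0 to 2 and 0 to 0 with ABE against saline. The causes were not tested.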
